A study of Mus musculus with 6 samples.

Results

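The genes described here were 36 lysosome and autophagy genes, taken by name from the 31053 genes of the raw count table, and all 36 passed the minimum on expression, as did 11633 genes in all. They were grouped by known roles, and the list was drawn up with earlier results of these data known. They comprised 11 acid hydrolases of the lysosomal lumen, 10 other lysosomal genes (4 for lumen and cholesterol-handling proteins, 4 for membrane proteins and 2 for transcription factors) and 15 autophagy genes. The comparison asked how the hydrolases, which macrophages also express highly, and the autophagy genes stood in muscle stem cells (MuSCs) with and without type 2 deiodinase (D2), the enzyme encoded by Dio2 that converts thyroxine to the active thyroid hormone.

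RNA was sequenced from quiescent MuSCs freshly isolated from the resting hindlimb muscles of 3 WT mice, named c124, c129 and c130, and of 3 mice of the cD2KO group, named fl125, fl126 and fl128, all aged 3 to 4 months, with 1 library per mouse. WT mice were Pax7nGFP/+;Pax7+/+;Dio2Fl/Fl, and cD2KO mice carried Pax7-CreERT2/+ in addition to Pax7nGFP/+ and Dio2Fl/Fl. All 6 mice received tamoxifen. By genotype, both groups carried the floxed Dio2 alleles and the GFP reporter, and only cD2KO mice carried the Pax7-driven inducible Cre. The loss of D2 and the presence of the Cre allele cannot be told apart in this design. Libraries held 2184073 to 3897787 counts. Dio2 had 21, 5 and 10 counts in c124, c129 and c130, and 15, 5 and 1 in fl125, fl126 and fl128. It was below the minimum for testing, and counts over the whole gene do not show whether its floxed part was removed. Mouse fl125 stood apart from the other 5 libraries, at 72.6 on the first principal component against -50.7 to 7.52 in the others.

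Lysosomes are acidic organelles in which hydrolases degrade proteins, lipids and glycans that arrive by endocytosis or by autophagy. In autophagy, a double membrane closes around cytoplasm and then fuses with a lysosome. An initiation complex starts the membrane, ubiquitin-like conjugation attaches Atg8-family proteins to it, and receptors tie cargo to these proteins. TFEB and TFE3 are transcription factors of many lysosomal and autophagy genes, and the sequence CACGTG, which reads the same on both strands, forms the core of the element they bind, of which TCACGTGA is a longer form. Autophagy is known to be needed for the maintenance of quiescent MuSCs, and resident macrophages of muscle are rich in lysosomal hydrolases.

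Promoter windows from RefSeq (GRCm38.p6, 250 bases before to 50 after a gene's start) were found for 30 of the 36 genes. CACGTG, searched on both strands and counted whether or not it lay within TCACGTGA, was present in 5 of 11 windows of the hydrolases (45.5%), 2 of 13 windows of the other lysosomal genes (15.4%) and 2 of 11 windows of the autophagy genes (18.2%). Among all 32851 windows of the table, 7.15% held it. TCACGTGA was present in 2 of 11 hydrolase windows, those of Ctsd and Ctsa, in that of Mcoln1 among the other lysosomal genes and in none of the autophagy windows, against 0.974% of all windows. The windows of Ctsl, Gaa, Glb1, Atg5, Atg7 and Lamp1 held CACGTG in its shorter form alone, with 4 copies in Lamp1. The stretches of 30 bases around these motifs are shown for the 4 genes that had both a motif and an unadjusted p under 0.05 between the groups, with the motif in capitals and its first base counted from the RefSeq start.
Ctsl at -236 (chr13:64370739-64370768, minus strand): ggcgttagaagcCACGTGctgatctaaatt
Gaa at -140 (chr11:119267811-119267840, plus strand): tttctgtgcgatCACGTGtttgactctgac
Atg7 at -132 (chr6:114670952-114670981, plus strand): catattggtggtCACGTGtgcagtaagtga
Ctsd at -245 (chr7:142388048-142388077, minus strand): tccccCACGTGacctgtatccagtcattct
Ctsd at -99 (chr7:142387908-142387937, minus strand): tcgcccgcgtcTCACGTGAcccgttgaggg
Against the GENCODE M21 annotation, the Ctsl stretch and the second Ctsd stretch lay in an exon of a transcript, the Atg7 stretch in an intron, and the Gaa stretch and the first Ctsd stretch upstream of the gene. The RefSeq start used for Atg7 lay 27999 bases inside the GENCODE gene. Of these 4 genes, 3 were lower in cD2KO and Atg7 was higher. No CACGTG was found for the other genes lower at the same threshold, Ctsb, Ctsc, Ctsz, Hexa, Man2b1 and Grn. Of the 11 hydrolases, 10 had a window. Among the motif genes that did not pass, Ctsa, Glb1, Lamp1 and Mcoln1 had negative estimates and Atg5 a positive one. Whether the motif went with a direction was not tested. A match is a description of these letters and not evidence of binding.

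Most of the hydrolases were lower in cD2KO than in WT. Of the 11 hydrolases, 8 (Ctsb, Ctsc, Ctsd, Ctsl, Ctsz, Gaa, Hexa and Man2b1) fell at an unadjusted p under 0.05 in the quasi-likelihood test of edgeR, and none rose. In all 11 the estimate was negative, from -0.45 to -2.30 on the log2 scale, with a median of -0.61. None of the 15 autophagy genes fell and 1, Atg7, rose, with a median of 0.01. Of the 10 other lysosomal genes, 1, Grn, fell and none rose, with a median of -0.16. Over all 11633 genes tested, 6.62% fell and 5.34% rose by the same rule, with a median of -0.02. The counts of autophagy genes and of other lysosomal genes are near these shares. After Benjamini-Hochberg adjustment over all genes, 1 of the 36, Man2b1, had an adjusted p under 0.1 in edgeR and fell, against 0.49% of all genes tested. In the other refits with all mice, 0 to 5 hydrolases fell at an adjusted p under 0.1, and 0 to 3 when a mouse was left out. The 5 were found by the DESeq2 Wald test, with adjusted p of 0.00856 for Man2b1, 0.0332 for Ctsz, 0.0501 for Ctsb, 0.0618 for Hexa and 0.0714 for Ctsc. The count of 8 hydrolases became 4 without c129, 5 without fl126 and 6 without fl125. Over all genes tested, the number that fell went from 770 to 408 without c129, 635 without fl126 and 866 without fl125. Without fl125 the 6 were Ctsb, Ctsc, Ctsl, Ctsz and Man2b1 together with Neu1, which was not among the 8.

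**Figure D1:**
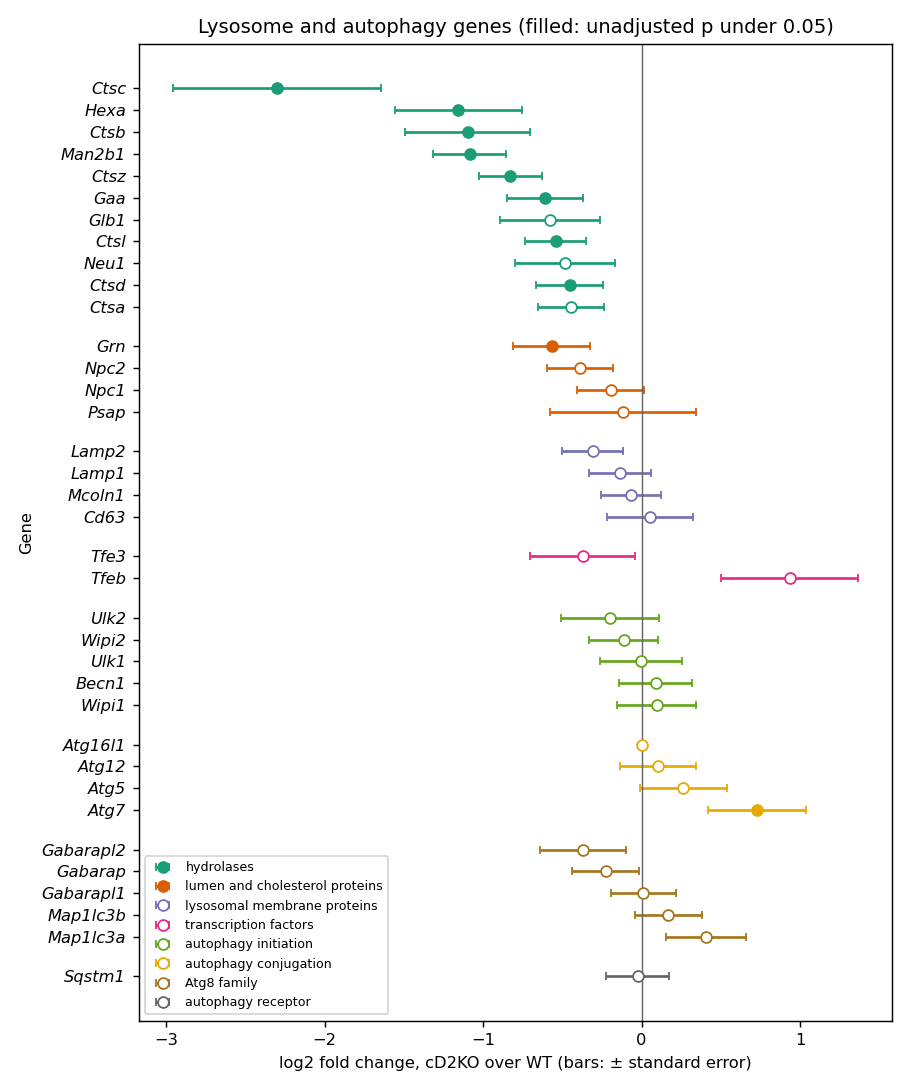
Log2 fold change of each gene, cD2KO over WT, on the horizontal axis, with the genes grouped by role on the vertical axis, bars for the standard error and filled points for an unadjusted p under 0.05. The 11 hydrolases lie between -2.30 and -0.45 and the 15 autophagy genes between -0.37 and 0.73, and no bar is drawn for Atg16l1, whose estimate was 0.00.

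Among the 36 genes, Ctsc, a cysteine cathepsin that activates serine proteases of immune cells, had the largest difference. Ctsc (chr7:88278085-88310888 in mm10) was at 173, 329 and 165 CPM in c124, c129 and c130, and at 11.3, 57.5 and 65.1 CPM in fl125, fl126 and fl128. All cD2KO values lay below all WT values, and fl125 lay far below the other cD2KO mice. On the log2 scale Ctsc changed by -2.30 ± 0.66 (SE, n = 3 per group), and its adjusted p in edgeR was 0.271. Ctsb, a broad cysteine protease, was at 787, 1628 and 1093 CPM in WT and at 262, 673 and 709 CPM in cD2KO. The groups did not overlap, and fl125 was again the lowest. Its log2 fold change was -1.10 ± 0.39 (adjusted p = 0.327 in edgeR), and without c129 it was -0.75 with an unadjusted p of 0.0883 in edgeR. Ctsz, a carboxypeptidase, was at 115, 162 and 148 CPM in WT and at 85.7, 77 and 76.7 CPM in cD2KO. Here fl125 was the highest of the cD2KO mice, and the groups did not overlap. The log2 fold change was -0.83 ± 0.20 (adjusted p = 0.105 in edgeR). Ctsl, a cysteine endopeptidase, was at 138, 171 and 154 CPM in WT and at 98.8, 118 and 102 CPM in cD2KO. The cD2KO values were close together and all below WT, with a log2 fold change of -0.54 ± 0.19 (adjusted p = 0.259 in edgeR). Without c129 the unadjusted p of Ctsl was no longer under 0.05.

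The aspartic protease Ctsd was at 264, 413 and 390 CPM in WT and at 245, 278 and 257 CPM in cD2KO. The groups overlapped, since c124 was below fl126, and the log2 fold change of -0.45 ± 0.21 had an unadjusted p of 0.0498 and an adjusted p of 0.418 in edgeR. Ctsd passed the unadjusted threshold in 4 of 15 refits. The serine carboxypeptidase Ctsa, which also protects other hydrolases, lay just past the threshold with an unadjusted p of 0.0505 in edgeR. It was at 171, 269 and 219 CPM in WT and at 170, 148 and 168 CPM in cD2KO, with a log2 fold change of -0.45 ± 0.21 in groups that did not overlap. Ctsa overlaps Pltp on the opposite strand, and the mean CPM of Pltp was 182 ± 92.6 for WT against 56.2 ± 42.1 for cD2KO (SD, n = 3). Whether reads of the overlap were assigned by strand is not given in the sources used here.

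The glycosidases had negative estimates too. Man2b1, the lysosomal alpha-mannosidase (chr8:85083270-85098282), was at 106, 172 and 136 CPM in WT and at 55.3, 60.9 and 78.6 CPM in cD2KO. All cD2KO mice were below all WT mice. Man2b1 changed by -1.09 ± 0.23 on the log2 scale (adjusted p = 0.0906 in edgeR). Gaa, which degrades lysosomal glycogen, was at 61.7, 46.4 and 46.4 CPM in WT and at 32.6, 30.5 and 38.4 CPM in cD2KO. The highest Gaa value was in c124, unlike most hydrolases, and the groups did not overlap. The log2 fold change of Gaa was -0.61 ± 0.24 (adjusted p = 0.340 in edgeR). Hexa, a subunit of beta-hexosaminidase, was at 70.1, 207 and 95.6 CPM in WT and at 40.3, 53.4 and 72.6 CPM in cD2KO. The groups overlapped and c129 was well above the other mice, with a log2 fold change of -1.16 ± 0.40 (adjusted p = 0.309 in edgeR). Without c129 the value for Hexa was -0.54 and without fl125 it was -0.94, with unadjusted p of 0.0760 and 0.0750 in edgeR. Glb1, the lysosomal beta-galactosidase, and Neu1, the lysosomal sialidase, had log2 fold changes of -0.58 and -0.48 and did not pass the test, and their groups overlapped.

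In 7 of the 11 hydrolases all cD2KO mice were below all WT mice, against 10% of all genes tested, and in none were all cD2KO mice above, against 8.1%. Mouse c129 was the highest of the 6 mice in 9 of the 11 hydrolases, and fl125 the lowest in 7. Ctsc, Ctsz and Man2b1 passed the unadjusted threshold in each of the 15 refits, which included leaving out each mouse in turn, and the other 5 hydrolases did not pass in every refit.

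**Figure D2:**
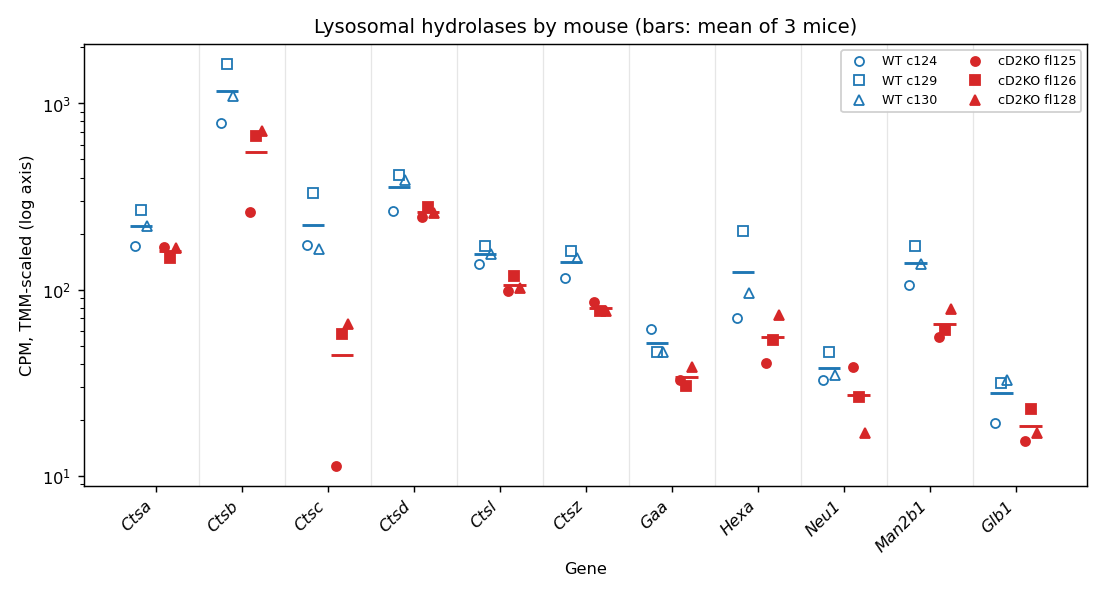
CPM of each hydrolase in each mouse on a log axis, with open blue symbols for WT, filled red symbols for cD2KO and a bar at the mean of 3 mice. The groups do not overlap in 7 of the 11 genes, and fl125 lies far below the other cD2KO mice in Ctsc and Ctsb.

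Of the lumen and cholesterol-handling proteins, Grn, the gene of progranulin, a secreted and lysosomal glycoprotein, was at 528, 657 and 698 CPM in WT and at 274, 476 and 522 CPM in cD2KO. The highest cD2KO value was just below the lowest WT value. The log2 fold change was -0.57 ± 0.25 (adjusted p = 0.381 in edgeR), and without fl125 it was -0.29 with an unadjusted p of 0.167 in edgeR. Npc1 and Npc2, which move cholesterol out of the lysosome, had log2 fold changes of -0.19 and -0.39 and did not pass the test. Psap, the precursor of the saposins that help hydrolases reach lipids, was at 72.2, 44.2 and 37.4 CPM in WT and at 86.6, 30.8 and 27.0 CPM in cD2KO. Here fl125 was the highest of all 6 mice, and without it the log2 fold change moved from -0.12 to -0.80, with an unadjusted p of 0.0178 and an adjusted p of 0.196 in edgeR. Psap passed the unadjusted threshold in 1 of 15 refits, the one without fl125.

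None of the 4 membrane proteins passed the test. Lamp2, a structural membrane protein also needed for fusion and chaperone-mediated autophagy, was at 228, 270 and 213 CPM in WT and at 194, 211 and 172 CPM in cD2KO. All cD2KO values were below all WT values by a small margin, with a log2 fold change of -0.31 ± 0.19 (adjusted p = 0.572 in edgeR). Lamp1, its relative, and Mcoln1, a calcium channel of the lysosome, had log2 fold changes of -0.14 and -0.07. Cd63, a tetraspanin of late endosomes, was at 1393 CPM in fl125 against 664 and 666 CPM in the other cD2KO mice and 811 to 925 CPM in WT.

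Neither of the transcription factors passed the test. Tfeb was at 16.4, 15.1 and 23.5 CPM in WT and at 13.1, 34.6 and 56.6 CPM in cD2KO. Mouse fl125 had the lowest value of the 6 and the other cD2KO mice the 2 highest. On the log2 scale the difference was 0.93 ± 0.43, with an unadjusted p of 0.0511 and an adjusted p of 0.422 in edgeR, and without fl125 it was 1.35 with an adjusted p of 0.0346 in edgeR. Over the 15 refits the value ran from 0.39 to 1.35 and passed the unadjusted threshold in 7. It did not pass without c124, c129, fl126 or fl128. Tfe3 ranged over 40.2 to 95.4 CPM in WT mice and over 35.4 to 62.6 CPM in cD2KO mice, with a log2 fold change of -0.37.

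The 5 initiation genes had log2 fold changes between -0.20 and 0.10, and none passed the test. Ulk2, a kinase that starts the membrane, had the smallest p among them, at 24.3, 46.4 and 23.2 CPM in WT and at 27.6, 27.4 and 26.7 CPM in cD2KO. Its cD2KO values lay within the WT range, with a log2 fold change of -0.20 ± 0.31 (adjusted p = 0.869 in edgeR). The kinase gene Ulk1, Becn1 of the lipid kinase complex and the lipid-binding Wipi1 and Wipi2 lay between -0.11 and 0.10.

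Among the conjugation genes, Atg7, the E1-like enzyme that activates Atg8-family proteins, was the gene that rose (chr6:114643097-114860614). It was at 17.4, 17.7 and 33.6 CPM in WT and at 32.6, 39.0 and 41.8 CPM in cD2KO. The groups overlapped, since c130 was above fl125. On the log2 scale the rise was 0.73 ± 0.31, with an unadjusted p of 0.0327 and an adjusted p of 0.377 in edgeR, and it passed the unadjusted threshold in 10 of 15 refits. It did not pass without c124, c129, fl126 or fl128. Atg5, Atg12 and Atg16l1, which make up the complex that completes the conjugation, had log2 fold changes of 0.26, 0.10 and 0.00 and did not pass.

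Of the Atg8 family, which coat the forming membrane, Map1lc3a was at 259, 196 and 254 CPM in WT and at 197, 339 and 406 CPM in cD2KO. Mouse fl125 was in the WT range and the other cD2KO mice above it. Its log2 fold change was 0.41 ± 0.25 (adjusted p = 0.565 in edgeR), and without fl125 it was 0.69 with an adjusted p of 0.0844 in edgeR. Map1lc3a passed the unadjusted threshold in 2 of 15 refits. Map1lc3b, Gabarap, Gabarapl1 and Gabarapl2 lay between -0.37 and 0.17 and did not pass. The cargo receptor Sqstm1 (p62) was at 296, 312 and 331 CPM in WT and at 245, 336 and 344 CPM in cD2KO. Its groups overlapped, with a log2 fold change of -0.02 ± 0.20 (adjusted p = 0.977 in edgeR).

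**Figure D3:**
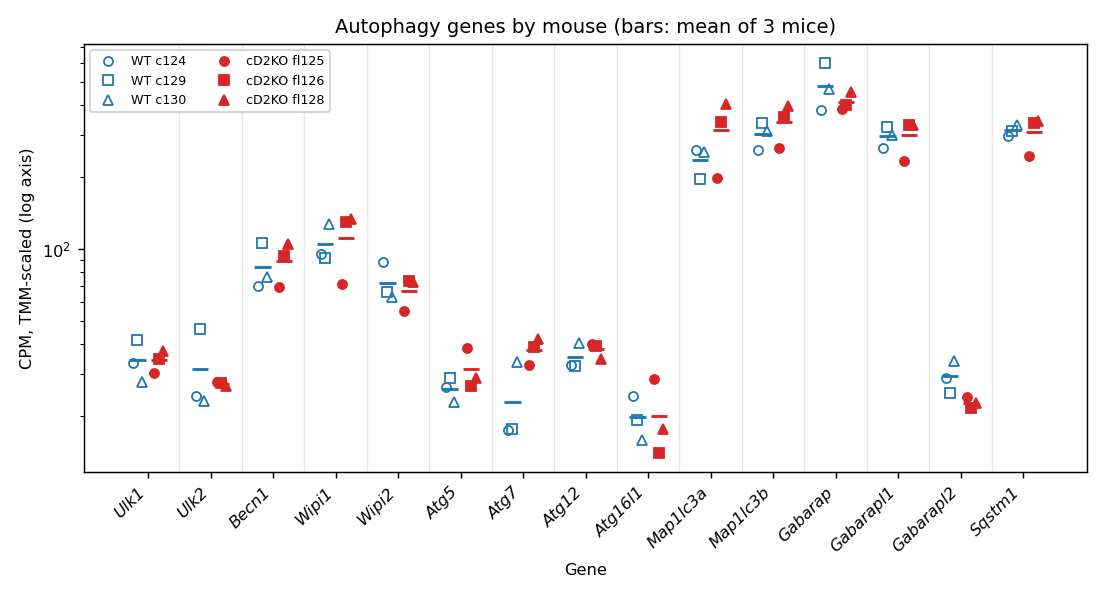
CPM of each autophagy gene in each mouse on a log axis, with symbols as in the plot of the hydrolases and a bar at the mean of 3 mice. The groups overlap in 14 of the 15 genes, the exception being Gabarapl2, which was lower in cD2KO and did not pass the test.

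As a mean over genes within each mouse, log2 CPM of the hydrolases was 6.80, 7.45 and 7.08 in c124, c129 and c130 and 5.97, 6.35 and 6.36 in fl125, fl126 and fl128. That of the autophagy genes was 6.23, 6.36 and 6.31 in WT and 6.22, 6.39 and 6.48 in cD2KO. The difference, hydrolases minus autophagy genes, was 0.81 ± 0.26 in WT and -0.14 ± 0.10 in cD2KO (SD, n = 3), with each WT mouse above each cD2KO mouse. It is given as a description, without a test, and its level depends on how each gene was counted, so that only its difference between mice is read.

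Macrophage markers were also lower in cD2KO. The summed level of 18 macrophage markers was 4308, 7976 and 5342 CPM in c124, c129 and c130, and 230, 2213 and 2460 CPM in fl125, fl126 and fl128. The estimates were negative in all 18. At an unadjusted p under 0.05 in edgeR 6 fell, against 6.62% of all genes tested. In 16 all cD2KO mice were below all WT mice, against 10% of all genes tested. The count of 6 was 17 without fl125 and 3 without fl128. It was 11 in the DESeq2 Wald test and 17 in limma voom and in edgeR without robust estimation. Among all genes tested, 770 fell in edgeR with all mice, 866 without fl125 and 669 without fl128. The number was 697 in the DESeq2 Wald test, 765 in limma voom and 825 in edgeR without robust estimation. The defining markers were present in both groups. Csf1r, the receptor for macrophage colony-stimulating factor, was at 421 to 462 CPM in WT and at 10.4, 191 and 268 CPM in fl125, fl126 and fl128. Ptprc, the pan-leukocyte CD45, ranged from 18.2 to 69.2 CPM across WT mice and from 4.08 to 15.7 CPM across cD2KO mice, and Adgre1 (F4/80) was at 57.3 CPM or more in WT and 35.5 CPM or less in cD2KO. Mouse c129 was the highest and fl125 the lowest of the 6 mice in all 18 markers. In bulk samples, fewer cells of a type and less RNA per cell cannot be told apart. The study isolated MuSCs by FACS, gating on the GFP of the Pax7 reporter, a gate meant to leave macrophages out. The part of macrophage RNA in the difference of the hydrolases was not tested.

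The ratio of fl125 to the other cD2KO mice varied among the hydrolases. The summed level of the markers in fl125 was 0.0983 times the mean of the other cD2KO mice. Among the 8 hydrolases that fell, the same ratio was 0.185 for Ctsc, 0.379 for Ctsb, 0.640 for Hexa, 0.793 for Man2b1, 0.90 for Ctsl, 0.917 for Ctsd, 0.948 for Gaa and 1.11 for Ctsz. Among the other 3 it was 0.772 for Glb1, 1.08 for Ctsa and 1.78 for Neu1. It was 0.549 for Grn, which is no hydrolase. For the sum of the 11 hydrolases the ratio was 0.671, and for the sum of the 15 autophagy genes 0.740. The median of the ratios of single genes was 0.90 for the hydrolases and 0.807 for the autophagy genes. In fl126 and fl128 alone, the mean of the summed hydrolases was 0.595 times that in WT, and that of the macrophage markers 0.398 times.

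**Figure D4:**
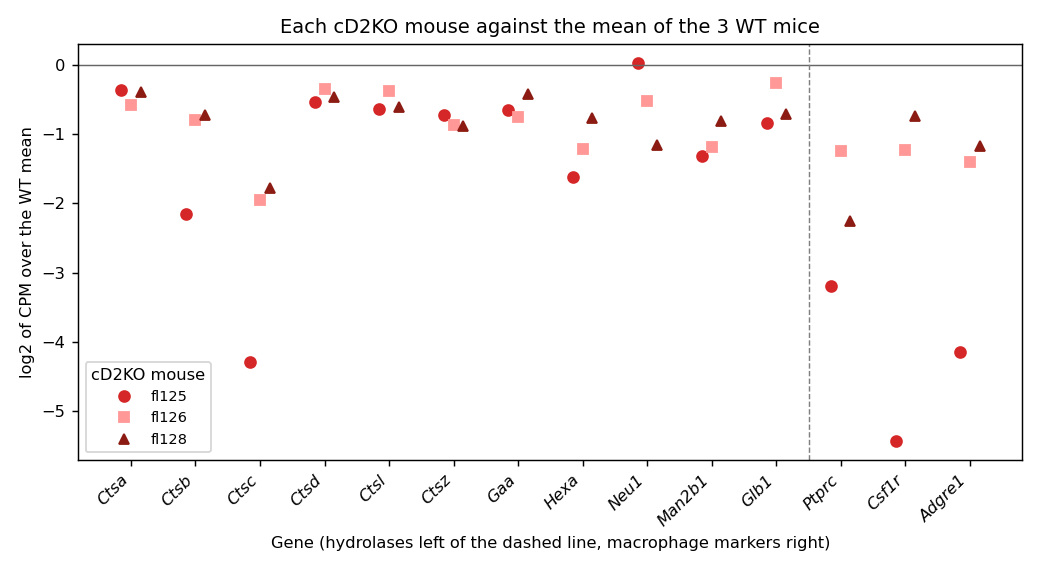
Log2 of CPM in each cD2KO mouse over the mean of the 3 WT mice, for the 11 hydrolases and, right of the dashed line, for the macrophage markers Ptprc, Csf1r and Adgre1. Mouse fl125 is the lowest in the markers and in 7 of the 11 hydrolases, far below the other cD2KO mice in Ctsc and Ctsb. Ctsz, Ctsd, Ctsa, Ctsl and Gaa lie close together in the 3 cD2KO mice.

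**Figure D5:**
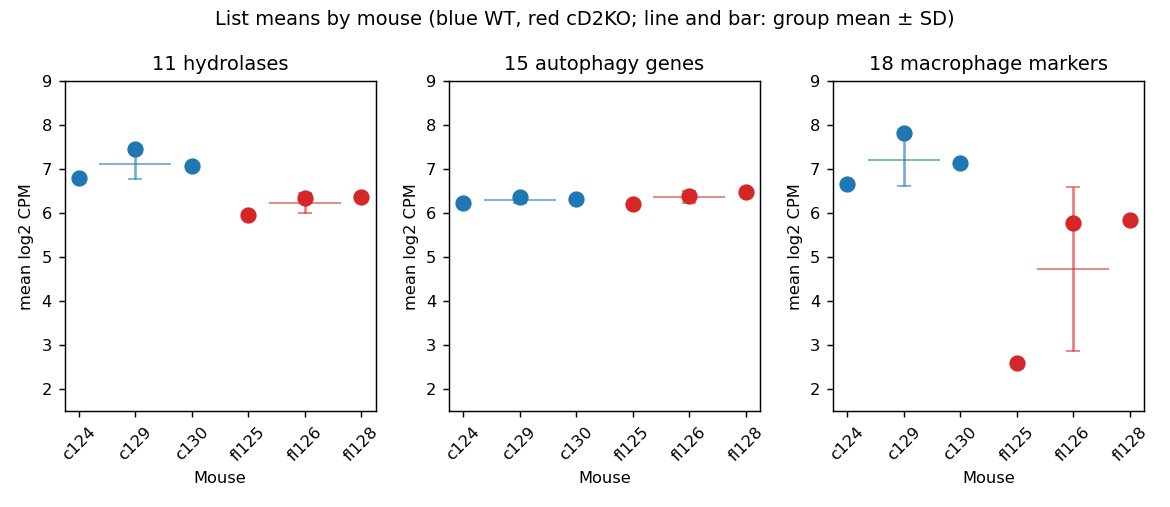
Mean log2 CPM over the 11 hydrolases, the 15 autophagy genes and the 18 macrophage markers in each mouse, with blue points for WT, red points for cD2KO and a line and bar for the group mean ± SD. The hydrolases and the macrophage markers are lower in each cD2KO mouse than in each WT mouse, and the autophagy genes overlap.

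Markers of other cells also differed. Pax7, the marker of MuSCs, ranged from 211 to 431 CPM across WT mice and from 314 to 688 CPM across cD2KO mice and did not pass the test, nor did Vcam1, at 112 to 144 and 94.6 to 130 CPM. Of 10 MuSC markers 3 rose, Itga7, Cdh15 and Myf5, the last from 28.7 to 35.7 CPM in WT to 34.6 to 59.4 CPM in cD2KO. None of the 10 fell, but 4 had negative estimates, the lowest being Sdc4 (-0.46) and Spry1 (-0.45). Among others, 7 of 10 endothelial markers and 2 of 8 markers of fibroadipogenic progenitors fell. Of 9 mural cell markers 4 rose, Acta2, Myh11, Tagln and Cnn1. In the same list Pdgfrb, Kcnj8 and Abcc9 had negative estimates (-0.06, -0.36 and -0.23), and that of Rgs5 was 0.00. For comparison, 6.62% of all genes tested fell and 5.34% rose. None of 5 myofiber markers passed, but all 5 estimates were positive, with a median of 0.54. Summed CPM (mean ± SD, n = 3) of the mural markers was 7161 ± 1953 in WT and 13060 ± 2799 in cD2KO. Each cD2KO mouse was above each WT mouse in this sum. In the same order, sums were 1185 ± 155 and 1449 ± 192 for MuSC markers and 2210 ± 892 and 3353 ± 1217 for myofiber markers. They were 338 ± 72.5 and 226 ± 29.0 for endothelial and 5164 ± 1222 and 3788 ± 1377 for fibroadipogenic markers. The part of these cells in the values of the 36 genes was not tested.

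Wider lists of the same pathways were read in the same way. Of 31 other lysosomal hydrolases tested, 7 fell and none rose, with a median log2 fold change of -0.54. Without c129 the number that fell was 4, and over all genes tested it was 408, against 770 with all mice. The 3 with the smallest p were the acid phosphatase Acp2 (-0.87), the asparaginyl endopeptidase Lgmn (-1.82) and the nuclease Dnase2a (-1.58). The ratio of fl125 to the mean of the other cD2KO mice was 0.643, 0.323 and 0.281 for these 3. Over the 31 it ran from 0 to 1.6 with a median of 0.643, under 1 in 24 and at 1 or more in 7. For their sum the ratio was 0.676. In the next list it ran from 0.123 to 2.7, with a median of 0.941 and 0.167 for Cd68. Of 18 other membrane and sorting proteins, Sort1, a sorting receptor, rose by 0.70 on the log2 scale, and M6pr, the cation-dependent mannose 6-phosphate receptor (-0.57), and Cd68, a macrophage-rich membrane glycoprotein (-2.0), fell. Of 15 subunits of the V-ATPase, the proton pump that acidifies lysosomes, Atp6v0b rose (0.55) and Atp6v0e fell (-0.45). Of 39 other autophagy genes, Trp53inp2 (0.58) and Atg101 (0.63) rose, Rb1cc1 (-0.49) and Tollip (-0.68) fell, and the median was 0.01. The counts of genes that passed in the membrane, V-ATPase and autophagy lists are near the background of all genes tested. In the membrane and sorting list, however, 14 of 18 estimates were negative, with a median of -0.18. All cD2KO mice were below all WT mice in 4 of these 18, against 10% of all genes tested. Of the V-ATPase estimates, 10 of 15 were negative, with a median of -0.10.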

How the data were processed

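RNA of MuSCs from 3 WT and 3 cD2KO mice was sequenced with 1 library per mouse. RNA was extracted with the RNeasy Mini Kit and sequenced by a commercial digital RNA-seq service. Per the labels, the authors used bcl2fastq, STAR 2.6.0a and HTSeq 0.9.1 with mm10, and deposited whole-number counts of reads per gene, not normalized. Which annotation was counted, whether strand was used and how duplicates were treated are not given in the sources used here. Overlapping genes are therefore uncertain. Examples on opposite strands are Ctsa with Pltp, Ctsb with Fdft1, Ctsz with Nelfcd, Hexa with Tmem202 and Grn with Fam171a2. Others are Sqstm1 with Mrnip, Lamp1 with Grtp1, Npc1 with Rmc1 and Becn1 with Cntd1. Protein-coding overlaps on the same strand are Ctsd with Gm49369, Glb1 with Tmppe and Map1lc3b with Gm20388. Because the counting per transcript length is not known, levels of single genes were not ranked, and list means were compared between mice.

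Identifiers were matched to GENCODE M21 (30934 of 31053). The authors' minimum was kept, a baseMean (the average count after scaling by DESeq2 size factors) above 10. edgeR 4.0.16 (R 4.3.3) gave TMM factors and robust quasi-likelihood tests over all 6 mice, without covariate. p-values were two-sided, and adjusted by Benjamini-Hochberg over all 11633 genes. Genes were called at an unadjusted p under 0.05, as the authors did. CPM used TMM-scaled totals, and log2 CPM a prior count of 2. The SE of a log2 fold change was derived from the edgeR test. It is the absolute log2 fold change over the square root of the F statistic, not a spread between mice. The fit was tested on simulated data. Genes were named by role: each gene with an unadjusted p under 0.05 and, in each role without one, the gene with the smallest p are given in every mouse. Cd63, Psap and Ctsa were also described after their values were seen. In the wider lists up to 3 genes in each direction are named. Members and lists were chosen with earlier results of these data known. The alternatives were other scalings, filters and tools (DESeq2 1.42.0, limma 3.58.1) and leaving out each mouse. Their use on the wider and macrophage lists, and the counts at an adjusted p under 0.1 in each, were chosen after seeing the data.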

Additional observations from a re-analysis of the deposited data

How the results depend on the processing

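Results were compared with 15 refits, 9 with all mice and 6 leaving out a mouse. The 8 lower hydrolases numbered 7 to 9 in the refits with all mice and 4 to 9 when a mouse was left out, and the 9 lower genes of all 36 numbered 8 to 11 and 4 to 10. When a mouse was left out, 408 to 866 of all genes tested fell, the fewest without c129. At an adjusted p under 0.1 in edgeR, 1 hydrolase and 1 of the 36 genes were lower and 0 were higher. The 1 higher gene became 2 with DESeq2 size factors in edgeR, upper quartile factors, the DESeq2 Wald test or edgeR's own filter, 3 with no minimum, 0 with library totals, and 0 to 3 when a mouse was left out. The number of autophagy genes that fell was 0 in all 15. The median log2 fold change of the hydrolases was -0.54 to -0.79 when a mouse was left out, and that of the autophagy genes -0.0518 to 0.134, the highest without fl125. No called gene changed sign, and 12 genes that were not called did. With all mice, the log2 fold change of Ulk1 was 0.0186 with DESeq2 size factors, 0.0188 with the DESeq2 Wald test, 0.0272 with limma voom and 0.0344 with no minimum. That of Atg16l1 was -0.0031 with upper quartile factors, -0.0568 with library totals, -0.0908 with limma voom and -0.0341 at a baseMean above 50. That of Gabarapl1 was -0.0629, -0.0025 and -0.0261 with library totals, limma voom and a baseMean above 50, that of Cd63 -0.0365 with limma voom and that of Sqstm1 0.0116 with no minimum. With a mouse left out, log2 fold changes ranged from -0.80 to 0.221 for Psap, -0.355 to 0.237 for Cd63, -0.156 to 0.0181 for Mcoln1, -0.641 to 0.13 for Tfe3, -0.102 to 0.185 for Ulk1, -0.354 to 0.219 for Ulk2, -0.0458 to 0.314 for Becn1, -0.0518 to 0.369 for Wipi1, -0.182 to 0.0533 for Wipi2, -0.292 to 0.204 for Atg16l1, -0.0707 to 0.195 for Gabarapl1 and -0.11 to 0.154 for Sqstm1. The cause was not tested. No paired analysis was possible because the labels give the groups no shared replicate numbers. Libraries of 2184073 to 3897787 counts and 3 mice per group limit what can be called.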
